A study of Rattus norvegicus with 2 samples.

Results

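The enzymes that make nitric oxide, the scaffold protein that holds the endothelial enzyme in check and the enzymes that make and recycle their cofactor were followed in small mesenteric arteries of rats with portal hypertension. The set comprised 9 genes, the nitric oxide synthases Nos1, Nos2 and Nos3, the caveolin gene Cav1, and the tetrahydrobiopterin genes Gch1, Gchfr, Pts, Spr and Qdpr. Its members were all probe sets of the array whose only annotated gene symbol was one of these, which gave 23 of 8740 probe sets once controls were set apart, for 9 of 4736 named genes. The portal hypertension group consisted of rats with prehepatic portal hypertension after partial ligation of the portal vein, and the sham group of rats that had a sham operation. Each group was 1 pool of total RNA from first and second order mesenteric arteries of 20 rats, read on 1 Affymetrix RG_U34A array. The sources used here do not give the strain, age or time after the operation. With 1 array per group there was no spread between samples, so no test was possible, and every difference below sets 1 pool against 1 pool.

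Nitric oxide is made from arginine by 3 synthases, a neuronal form encoded by Nos1, an inducible form encoded by Nos2 and an endothelial form encoded by Nos3, and it relaxes smooth muscle through soluble guanylyl cyclase and cyclic GMP. All of these synthases need tetrahydrobiopterin. Without enough of it the endothelial enzyme releases superoxide in place of nitric oxide. In the splanchnic arteries nitric oxide has long been studied as a mediator of the vasodilation that accompanies portal hypertension.

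Most of the 9 genes had similar signals in the pools. Only Nos3, the endothelial synthase gene, and Qdpr, the gene of the reductase that regenerates tetrahydrobiopterin, had measured probe sets with a signal at least 1.5-fold lower in the portal hypertension pool. In both genes, with the authors' scaling, another probe set had the higher signal in the portal hypertension pool, so the array did not settle a direction for either. With that scaling Cav1, Gch1, Gchfr, Pts, Spr and Nos2 stayed within 1.5-fold on every probe set that could be measured, and Nos1 could not be measured.

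A probe set was called measured when its signal exceeded a floor of 330.9 intensity units in both pools, the 40th percentile of all values of the pools. Of the 23 member probe sets, 12 were measured, 1 exceeded the floor in 1 pool only and 10 lay below it in both pools. Ratios are log2 ratios of portal hypertension over sham, so a negative value means a lower signal in portal hypertension. Of the 12 measured member probe sets, 3 were at least 1.5-fold lower, from 2 genes, while 5.38% of the 4960 measured probe sets of the array were. None was at least 1.5-fold higher (0 of 12), against 3.10% of the array. At a threshold of 2-fold, 2 of the 12 were lower and 0 higher, against 0.907% and 0.444% of the array. These probe sets are not independent, since several read the same mRNA. The 8 genes with a value had a median log2 ratio of -0.13, beside a median of -0.02 over all 3351 genes with a value. Of these genes, 6 had a negative and 2 a positive value.

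**Figure D1:**
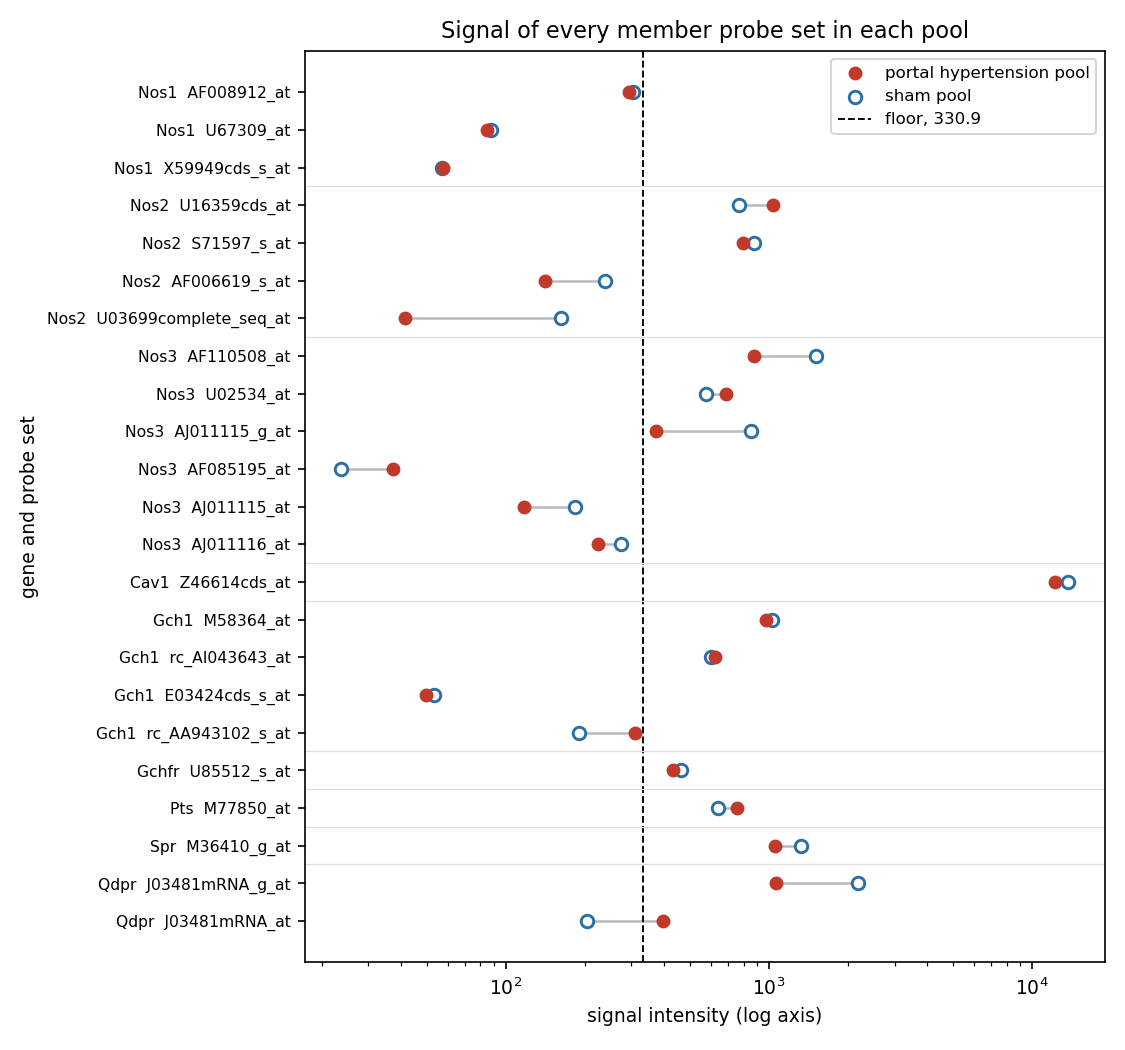
Signal intensity on a log axis of all 23 member probe sets, one row each, in the portal hypertension pool (filled red) and the sham pool (open blue), with the floor of 330.9 dashed. The widest gaps above the floor belong to Nos3 and Qdpr, and within each of these genes rows shift in opposite directions, while Cav1, Gch1, Gchfr, Pts and Spr have nearly coinciding points above the floor.

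Nos3 was read by 6 probe sets. The one with the highest signal, AF110508_at, had a signal of 878.8 in the portal hypertension pool and 1510.7 in the sham pool, a log2 ratio of -0.78, or 58.2% of the sham signal. The probe set AJ011115_g_at had 371.2 in the portal hypertension pool and 852.1 in the sham pool, a log2 ratio of -1.20. The third measured one, U02534_at, went the other way, with 684.8 in the portal hypertension pool and 576.9 in the sham pool, a log2 ratio of 0.25. Of the measured Nos3 probe sets, 2 thus had a lower signal in portal hypertension beyond 1.5-fold, and 1 a higher signal within 1.5-fold. The lower signal of AJ011115_g_at was only 1.12 times the floor. Centring the ratios on the spike-in controls took U02534_at to -0.03, so its direction depended on the scaling. The noted cRNA amounts also differed between the arrays, and their part in the spike-in signals was not tested.

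The other 3 Nos3 probe sets lay below the floor in both pools and have no ratio. AJ011116_at had 223.6 in the portal hypertension pool and 273 in the sham pool. AJ011115_at, which carries the same sequence record in its name as AJ011115_g_at, had 117 in the portal hypertension pool and 183.8 in the sham pool. AF085195_at had 37.3 in the portal hypertension pool and 23.7 in the sham pool. Over all 6, the signal was numerically lower in the portal hypertension pool on 4 and numerically higher on 2.

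The disagreement within Nos3 was wide for this array. Its 3 measured ratios spanned 1.45 on the log2 scale. Among the 133 genes with exactly 3 measured probe sets the median span was 0.43, and 2 genes had a wider span than Nos3. Ratios of opposite sign alone were common, in 86 of these 133 genes, and 13 of them combined a ratio at least 1.5-fold lower with one above 0. Across all 789 genes with several measured probe sets, the ratios of a gene scattered around their mean with an SD of 0.30. The disagreement within Nos3 was known when these members were chosen, so its rank is a description only.

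Markers of the endothelium, the layer that expresses Nos3, are given beside it. Of a list of 19 endothelial genes, 7 had a value, 3 lay below the floor and 9 had no probe set named here, among them the defining genes Cdh5, Tek and Tie1. Pecam1, an adhesion molecule of endothelial junctions, had a signal of 3176.3 in the portal hypertension pool and 3408.7 in the sham pool, a log2 ratio of -0.10. Icam2, an adhesion molecule of endothelium and platelets, had 364.7 in the portal hypertension pool and 796.1 in the sham pool. Its log2 ratio was -1.13 on a single probe set, and the lower of these signals was close to the floor of 330.9. Edn1, the endothelin-1 precursor gene, lay beyond 1.5-fold on the other side, with 1552.3 in the portal hypertension pool and 1011.1 in the sham pool, a log2 ratio of 0.62. Selp, which encodes P-selectin, had 0.17, and both were picked after their values were seen. Vwf, which encodes von Willebrand factor, did not exceed the floor in either pool on its probe sets. The list had a median log2 ratio of -0.09, with 2 genes above 0 and 5 below, and the signals of its 8 measured probe sets summed to 11193.7 in the portal hypertension pool and 11454.2 in the sham pool. The part of endothelial content in the Nos3 values was not tested, and in pooled tissue RNA fewer cells of a type and less RNA per cell cannot be told apart.

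Nos2 and Nos1 gave no common direction. Nos2 encodes the synthase that macrophages and cytokine-treated smooth muscle switch on. Its probe set U16359cds_at had a signal of 1036.9 in the portal hypertension pool and 770.6 in the sham pool, a log2 ratio of 0.43. Its probe set S71597_s_at had 797.2 in the portal hypertension pool and 876.1 in the sham pool, a log2 ratio of -0.14. Both ratios lie within 1.5-fold and have opposite signs, and their span of 0.56 was exceeded by 11.9% of the 613 genes with exactly 2 measured probe sets. The other Nos2 probe sets lay below the floor, AF006619_s_at with 140.6 in the portal hypertension pool and 237.6 in the sham pool, and U03699complete_seq_at with 41.2 in the portal hypertension pool and 161.7 in the sham pool. Over all 4, the signal was numerically lower in the portal hypertension pool on 3 and numerically higher on 1.

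Of the 10 macrophage and myeloid markers set beside Nos2, 6 had a value, with a median log2 ratio of 0.33, 4 above 0 and 2 below. The lower ones were Cd14 at -0.14 and Ptprc at -0.48, with Ptprc probe sets at 0.995, -0.48 and -0.63. The summed signal of the 10 measured probe sets of these markers was 58780.1 in the portal hypertension pool and 48250.9 in the sham pool. Their part in the Nos2 values was not tested.

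All 3 probe sets of Nos1, the synthase of nitrergic nerves, lay below the floor in both pools. AF008912_at had 293.2 in the portal hypertension pool and 305.3 in the sham pool, U67309_at had 84.7 in the portal hypertension pool and 87.5 in the sham pool, and X59949cds_s_at had 57.8 in the portal hypertension pool and 57.3 in the sham pool. The pools differed by at most 12.1 intensity units on these probe sets, but without a level above the floor no ratio is given.

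Cav1 encodes caveolin-1, the coat protein of caveolae, which binds the endothelial synthase and holds it inactive until calcium-loaded calmodulin displaces it. Its single probe set had a signal of 12249.7 in the portal hypertension pool and 13738.8 in the sham pool, a log2 ratio of -0.17, or 89.2% of the sham signal. It was the only measured member probe set in the brightest of 4 equal bins of level, where ratios scattered least, with an SD of 0.26. In smooth muscle and fat cells caveolae are also abundant, and pooled artery RNA does not separate these cells from the endothelium.

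**Figure D2:**
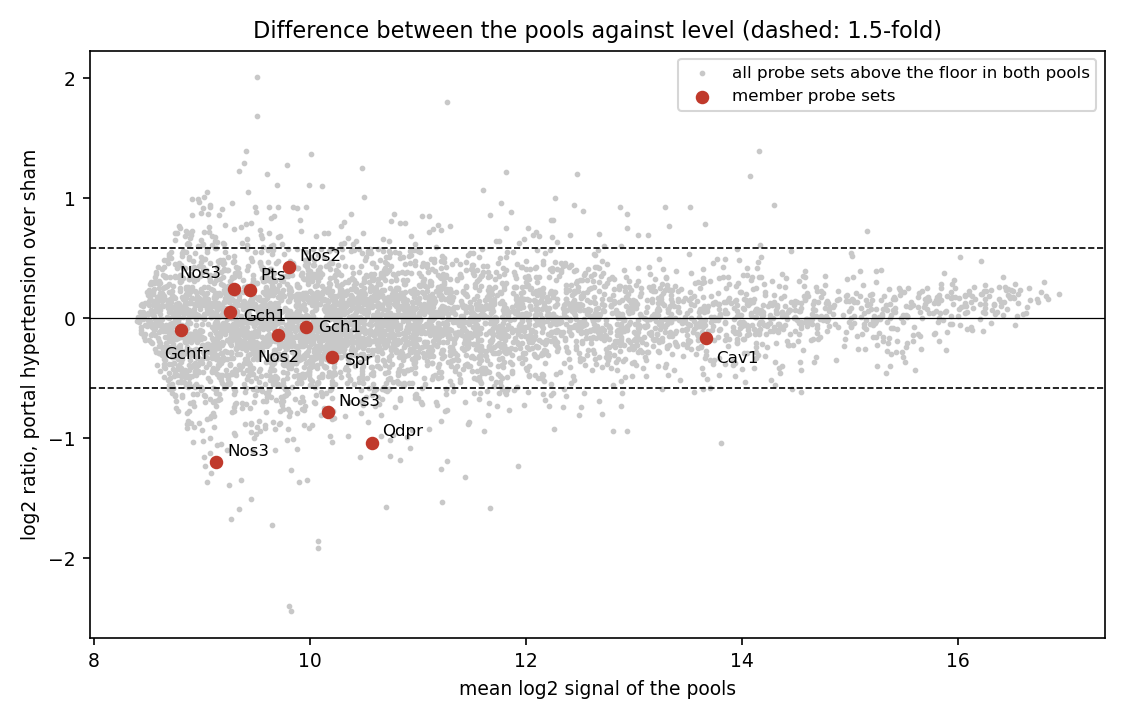
Log2 ratio of portal hypertension over sham against the mean log2 signal of the pools for the 4960 measured probe sets (grey) and the 12 measured member probe sets (red, named by gene), with 1.5-fold dashed. Apart from Cav1 the members sit at the dimmer end, where the grey cloud is wide, and only 2 Nos3 probe sets and 1 of Qdpr lie beyond 1.5-fold.

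The enzymes that build tetrahydrobiopterin from GTP differed little. Gch1 encodes GTP cyclohydrolase 1, the rate-limiting first step. Its probe set M58364_at had a signal of 972.8 in the portal hypertension pool and 1025.8 in the sham pool, a log2 ratio of -0.08, and rc_AI043643_at had 625.2 in the portal hypertension pool and 603.8 in the sham pool, a log2 ratio of 0.05. The measured probe sets of Gch1 thus lay close together, with a span of 0.13. Below the floor, rc_AA943102_s_at had 309.5 in the portal hypertension pool and 189.5 in the sham pool, and E03424cds_s_at had 49.8 in the portal hypertension pool and 53.4 in the sham pool.

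Gchfr encodes the feedback regulator that lets tetrahydrobiopterin inhibit GTP cyclohydrolase 1. It had a signal of 432.9 in the portal hypertension pool and 464 in the sham pool, a log2 ratio of -0.10. Pts encodes the synthase of the second step and had 753.4 in the portal hypertension pool and 641.6 in the sham pool, a log2 ratio of 0.23. Spr encodes sepiapterin reductase, which completes the cofactor, and had 1056.5 in the portal hypertension pool and 1317.9 in the sham pool, a log2 ratio of -0.32. Each of these 3 genes rested on 1 probe set, all within 1.5-fold with the scaling of the authors. With spike-in centring Pts came to -0.05 and Spr to -0.60, which is beyond 1.5-fold. At the main settings a ratio of their size is close to or below the scatter within genes given above (SD 0.30).

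Qdpr encodes dihydropteridine reductase, which returns the quinonoid dihydrobiopterin left by the aromatic amino acid hydroxylases to tetrahydrobiopterin. Its probe set J03481mRNA_g_at had a signal of 1064.7 in the portal hypertension pool and 2185.1 in the sham pool, a log2 ratio of -1.04, or 48.7% of the sham signal. Its probe set J03481mRNA_at, from the same sequence record by name, had 394.2 in the portal hypertension pool and 202.6 in the sham pool. The sham signal was below the floor, which makes this probe set at least 1.19-fold higher in portal hypertension. The pools therefore ordered in opposite ways on a pair of probe sets for the same transcript record. With a floor at the 20th percentile, both were measured, with log2 ratios of -1.04 and 0.96.

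The signal of J03481mRNA_g_at over that of its partner was 2.70 in the portal hypertension pool and 10.8 in the sham pool. The array holds 906 such pairs, and in 517 of them at least 1 probe set was measured and the other exceeded the floor in at least 1 pool. In these 517 pairs, the ratios of the partners differed by a median of 0.21 on the log2 scale and by 0.63 at the 90th percentile. For Qdpr they differed by 1.29, and 9 pairs, or 1.74%, differed by more. The disagreement of the Qdpr pair was thus among the widest of the array. It too was known when these members were chosen, so its rank is a description only.

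**Figure D3:**
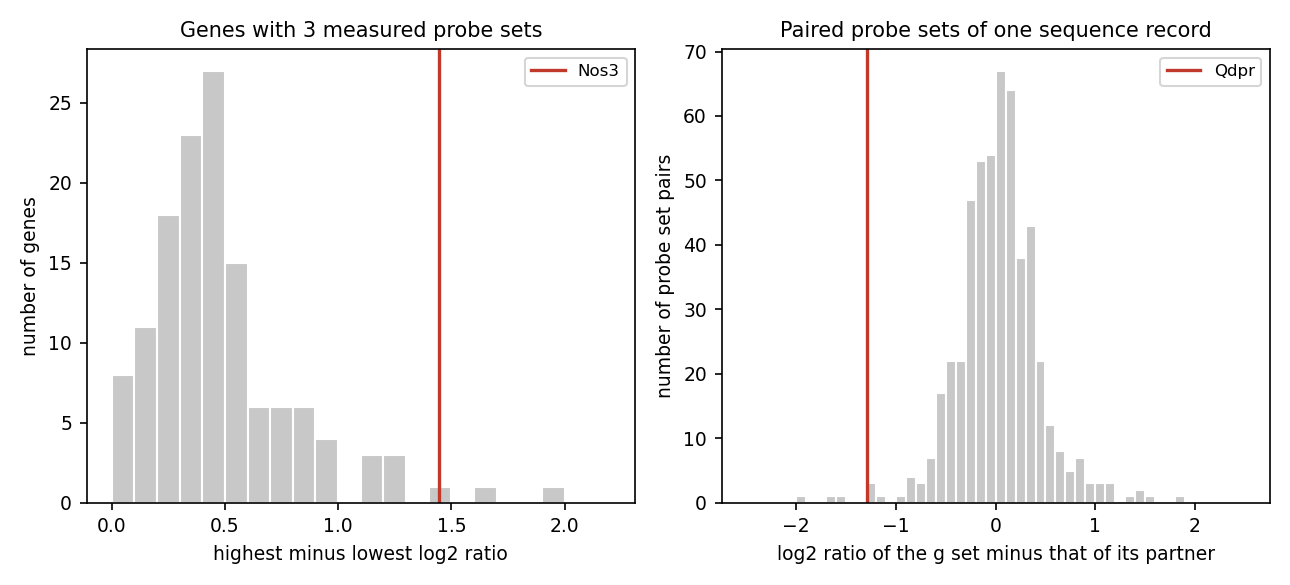
Left, the span between the highest and lowest log2 ratio for the 133 genes with exactly 3 measured probe sets, with Nos3 at 1.45. Right, the floored log2 ratio of the probe set marked g minus that of its partner in the 517 usable pairs. Qdpr lies at -1.29, a limit set by the floor. Both genes, which were known to disagree when chosen, lie in the thin tail of their histogram.

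The 250 bases before the annotated start were compared for the members, using RefSeq sequences of the rat assembly GRCr8. These held 8 of the 9 genes, Nos2 being the other, with 9 start sites because Cav1 has 2. The sequences of Nos3 and Qdpr, whose probe sets included those beyond 1.5-fold, and of Gch1, the rate-limiting enzyme, are shown 5′ to 3′ on the strand of the gene. Capitals mark GGGCGG (GC box), CCAAT and TATAAA on either strand, including overlapping matches.
Nos3 (chr4:11706582-11706831, minus strand): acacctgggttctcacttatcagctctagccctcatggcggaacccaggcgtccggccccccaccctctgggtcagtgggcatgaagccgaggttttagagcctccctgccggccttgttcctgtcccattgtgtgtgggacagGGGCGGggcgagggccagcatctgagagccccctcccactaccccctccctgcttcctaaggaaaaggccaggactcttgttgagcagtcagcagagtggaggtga
Qdpr (chr14:69882526-69882775, plus strand): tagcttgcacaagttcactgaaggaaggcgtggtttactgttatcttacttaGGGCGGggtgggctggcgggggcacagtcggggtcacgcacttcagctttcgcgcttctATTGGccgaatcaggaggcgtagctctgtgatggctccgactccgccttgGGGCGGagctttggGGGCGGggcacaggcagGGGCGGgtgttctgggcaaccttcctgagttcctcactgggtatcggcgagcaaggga
Gch1 (chr15:22917413-22917662, minus strand): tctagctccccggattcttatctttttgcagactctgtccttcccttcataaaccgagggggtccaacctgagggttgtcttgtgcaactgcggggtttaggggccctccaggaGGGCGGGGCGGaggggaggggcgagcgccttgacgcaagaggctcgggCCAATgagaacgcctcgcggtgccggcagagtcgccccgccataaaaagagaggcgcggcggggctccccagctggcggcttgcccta
The Nos3 sequence holds 1 GC box and neither CCAAT nor TATAAA. The Qdpr sequence holds 4 GC boxes and 1 CCAAT box read on the opposite strand, and the Gch1 sequence holds 2 overlapping GC boxes and 1 CCAAT box. A GC box was present in 7 of the 9 member sequences, against 30.5% of 33465 such sequences in the rat table. CCAAT was present in 4 of 9, against 34.0%, and TATAAA in 1 of 9, at the first Cav1 start, against 12.9%. The GC content of the 9 sequences was between 54.0% and 70.4%, with a median of 61.2%, against a median of 51.2% over the table. These matches describe the letters only.

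The measured members lay mostly at low signal, where ratios scatter more. When the 4960 measured probe sets were split into 4 equal bins by mean level, 5 member probe sets fell in the lowest bin, with an SD of the log2 ratio of 0.40, and 6 in the next, with 0.38. In these bins 7.90% and 7.10% of all probe sets were at least 1.5-fold lower. Among the 3 member probe sets beyond 1.5-fold, AJ011115_g_at of Nos3 was in the lowest bin, and AF110508_at of Nos3 and J03481mRNA_g_at of Qdpr were in the next.

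Other genes of the pathway were mostly within 1.5-fold, on the same gene scale as above, which is the median log2 ratio over the probe sets of a gene with at least 1 pool above the floor. Over all 3351 genes with a value, the share past 1.5-fold was 3.13% on the higher side and 5.04% on the lower side. Of 29 partners and regulators of the synthases, 11 had a value, with a median of 0.02, and 1 was at least 1.5-fold higher and 1 lower. The lower one was Flot2, a scaffold protein of membrane rafts, with a signal of 597.4 in the portal hypertension pool and 1534.9 in the sham pool and a log2 ratio of -1.36 on 1 probe set. The higher one was Dnm1, a dynamin of membrane fission, with 509.2 in the portal hypertension pool and 220.8, below the floor, in the sham pool, hence at least 1.54-fold higher.

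Flot1, the partner of Flot2 in rafts, had a gene log2 ratio of -0.35, with -0.23 and -0.48 on its probe sets. Calm2, one of the calmodulin genes, had -0.04, with 37930.4 in the portal hypertension pool and 38975.4 in the sham pool. Hsp90ab1, a chaperone of the HSP90 family that binds the endothelial synthase, had 0.13 over 4 probe sets. Cav3, the muscle caveolin gene, which was picked after its values were seen, had 0.09, 0.02 and -0.64 on its 3 probe sets. Cav2, Hsp90aa1 and Dynll1 had no probe set named here.

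Of 12 genes of arginine supply and use and of methylarginine synthesis and breakdown, 6 had a value, with a median of -0.19, and 0 lay beyond 1.5-fold in either direction. Ddah1, which breaks down the synthase inhibitor asymmetric dimethylarginine, had a log2 ratio of -0.22, with 1059.7 in the portal hypertension pool and 1233.2 in the sham pool. Asl, the argininosuccinate lyase that makes arginine, had -0.19 over 2 probe sets, and Odc1, the first enzyme of polyamine synthesis, -0.18 over 2. Slc7a1, a cationic amino acid transporter, had 428.1 in the portal hypertension pool and 337 in the sham pool, close to the floor, and a log2 ratio of 0.35. Ddah2 had no probe set named here.

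Of 12 genes of pterin side branches, recycling and tetrahydrobiopterin use, 4 had a value, with a median of 0.19, and 0 lay beyond 1.5-fold. Akr1b1, the aldose reductase that can act on intermediates of the cofactor's synthesis, had a gene log2 ratio of 0.05, from 2 probe sets. Cbr1, a carbonyl reductase with the same ability, had 0.33, with 0.14 and 0.53 on its probe sets. Xdh, the xanthine dehydrogenase, had 6798.4 in the portal hypertension pool and 5230.5 in the sham pool, a log2 ratio of 0.38. Pcbd1, another recycling enzyme, had no probe set named here.

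Downstream of nitric oxide, 11 of 23 effector genes had a value, with a median of -0.05, and 0 were at least 1.5-fold higher and 1 lower. Of the subunits of soluble guanylyl cyclase, the receptor of nitric oxide, 2 had similar signals in the pools, Gucy1a1 with 16435.7 in the portal hypertension pool and 16104 in the sham pool, a log2 ratio of 0.03, and Gucy1b1 with 13062 in the portal hypertension pool and 13942.1 in the sham pool, a log2 ratio of -0.09. Gucy1b2, a further beta subunit, which was picked after its values were seen, had 481.8 in the portal hypertension pool and 248, below the floor, in the sham pool, hence at least 1.46-fold higher. The gene beyond 1.5-fold was Kcnmb1, a regulatory subunit of the BK potassium channel, with a gene value of -0.68. Its probe sets were 10009.5 in the portal hypertension pool and 20544.9 in the sham pool (log2 ratio -1.04), and 12569.9 in the portal hypertension pool and 15826.3 in the sham pool (log2 ratio -0.33). Pln, which encodes phospholamban, an inhibitor of the sarcoplasmic calcium pump, had -0.48. Pde5a, the phosphodiesterase that degrades cyclic GMP, did not exceed the floor on any probe set, and Prkg1, the cyclic GMP kinase gene, had no probe set named here.

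**Figure D4:**
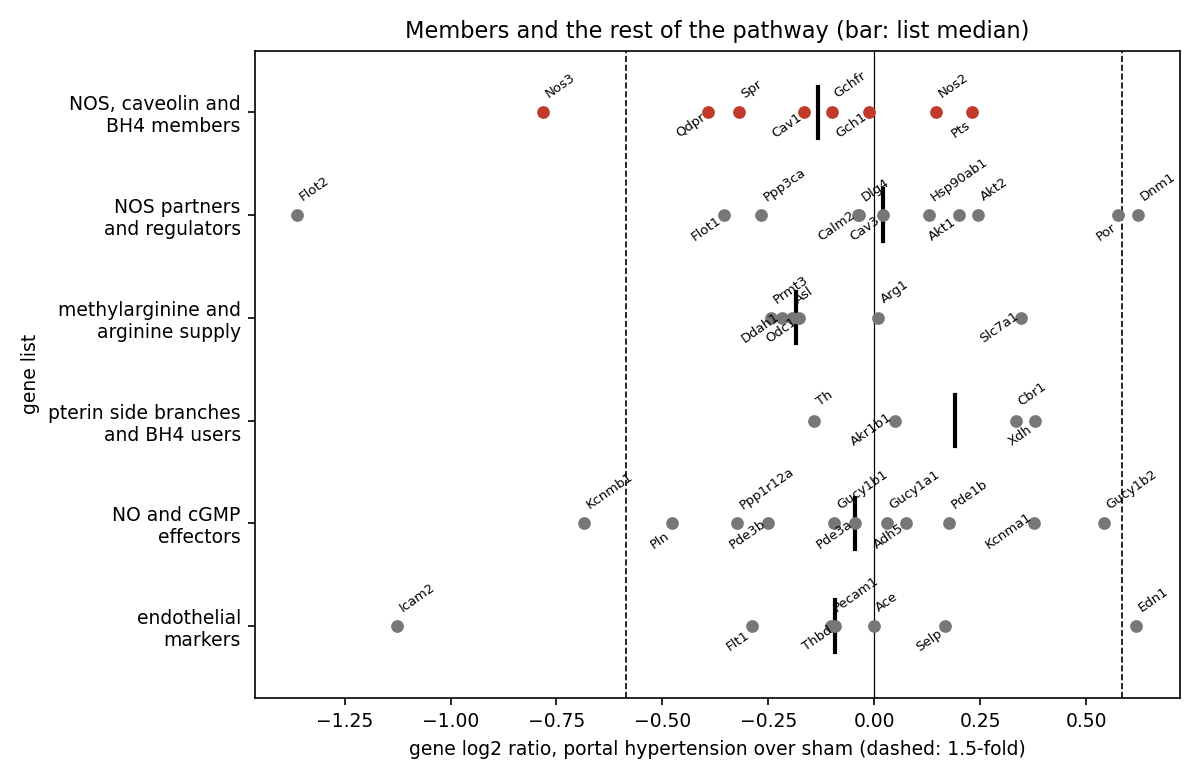
Gene log2 ratios of portal hypertension over sham for the 8 members with a value (red), for 4 lists of pathway genes and for the endothelial markers (grey), with a bar at each list's median and 1.5-fold dashed. The values of Dnm1, Gucy1b2 and Kcnma1 rest on a signal above the floor in 1 pool only and are lower limits, and those of Qdpr and Akt1 include 1 such probe set. Nos3, Flot2, Kcnmb1 and Icam2 lie beyond 1.5-fold on the lower side, and Dnm1 and Edn1 on the higher side.

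The arrays also differed in how they were run. The file headers note, marked as uncertain, 12.5 µg of labelled cRNA on the portal hypertension array and 17 µg on the sham array, which were also run on different fluidics modules. The effects of these settings and of the ligation cannot be told apart. The arteries carried strong smooth muscle signal, with 15 measured probe sets of 8 marker genes summing to 653145.5 in the portal hypertension pool and 672338.6 in the sham pool. The median log2 ratio of these 8 genes was -0.19, with 6 below 0 and 2 above. Among them 1, Kcnmb1, was at least 1.5-fold lower, against 5.04% of all genes with a value. Adipocyte markers, the cells around mesenteric vessels, had a median log2 ratio of 0.34 over 7 genes, with 5 above 0 and 2 below. Nerve markers had 0.11 over 8 genes, with 5 above 0 and 3 below. Among the nerve genes, Prph and Snap25 exceeded the floor in the portal hypertension pool only, so their values are lower limits. The 7 measured nerve probe sets summed to 30641.8 in the portal hypertension pool and 34235.9 in the sham pool, the other direction from the median. Fibroblast markers had a median log2 ratio of 0.22 over 8 genes, with 7 above 0. Mast cell markers had a median log2 ratio of 0.16 over 5 genes, with 4 above 0 and 1, Tpsb2, below at -0.37. That median is the value of Fcer1a, with 369.9 in the portal hypertension pool and 266.2, below the floor, in the sham pool. It is thus a lower limit set by the floor. Of these 5 genes, 2, Cma1 and Cpa3, were at least 1.5-fold higher, against 3.13% of all genes with a value. The summed signal of 4 measured mast cell probe sets was 17481.9 in the portal hypertension pool and 10371.5 in the sham pool. Those of Cma1 and Cpa3 had the highest signals of the 4 in both pools. The part of these cells in the member values was not tested.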

How the data were processed

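Total RNA was isolated with TriZOL and cleaned with RNeasy, per the labels, and hybridised to RG_U34A arrays, per the file headers. The authors deposited linear intensities, 1 for each probe set in each pool, and the sources used here do not give their software, scaling or background correction. The means after leaving out 2% of values at each end were 2504.38 in the portal hypertension pool and 2504.33 in the sham pool, so the intensities were used as already scaled. Detection calls were not used here.

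Values below the 40th percentile of both arrays without controls (330.9) were raised to it ahead of the log2 step. The floor compresses low signals, so ratios of probe sets below it in 1 pool are lower limits. Gene names come from the platform annotation, where 7018 had 1 symbol, 308 several and 1473 none, and only those with 1 symbol were used. That left out 4 probe sets annotated with a member and a pseudogene. Looking up gene identifiers in RefSeq (GRCr8) changed 0 symbols. The value of a gene is the median log2 ratio over its probe sets with at least 1 pool above the floor.

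The members, the lists and the thresholds were chosen with earlier results of these data known. All members and probe sets are given. Of each pathway list, genes at least 1.5-fold apart, the 3 of highest level and a fixed set of partners are named. Calculations used Python 3.11.15, pandas 2.3.3 and statsmodels 0.14.6, and the ratio and call steps were tested on simulated data. The number of arrays limits the precision. Alternatives were 8 planned settings and 1 added after seeing the data (spike-in centring).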

Additional observations from a re-analysis of the deposited data

How the results depend on the processing

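No paired analysis was possible because each group holds 1 pool. The 3 member probe sets beyond 1.5-fold kept their direction under every setting in which they were measured. Log2 ratios lay between -1.06 and -0.72 for AF110508_at and between -1.48 and -1.14 for AJ011115_g_at of Nos3. For J03481mRNA_g_at of Qdpr they lay between -1.32 and -0.99. These probe sets were picked for their large ratios, and a changed floor does not alter a measured ratio. Their constant direction was therefore no test. Centring on 9 spike-in controls, which averaged a log2 ratio of 0.28, was chosen after seeing the data. It shifts all ratios down. With it U02534_at of Nos3 came to -0.03, Pts to -0.05 and Spr to -0.60. That made 4 member probe sets at least 1.5-fold lower, while 17.8% of all 4960 measured probe sets were. At the main settings 5.38% of all measured probe sets were. The count of member probe sets at least 1.5-fold lower was 3 at the main settings, 5 with a 20th percentile floor, and 1 with a 60th percentile floor or with only probe sets without a suffix letter, which leaves out AJ011115_g_at and J03481mRNA_g_at. With the 60th percentile floor AF110508_at of Nos3 was above the floor in the sham pool only. Its log2 ratio of -0.76 is then a lower limit of the difference. At the 60th percentile floor 4 member probe sets were measured, and 3.32% of all 3317 measured probe sets were at least 1.5-fold lower. No such share was computed without suffix letters. With the 20th percentile floor (106.4) 2 were also at least 1.5-fold higher, Gch1 rc_AA943102_s_at with 0.71 and Qdpr J03481mRNA_at with 0.96, and the added lower ones were Nos2 AF006619_s_at with -0.76 and Nos3 AJ011115_at with -0.65. At that floor 8.99% of all measured probe sets were lower and 6.46% higher. The gene value of Qdpr lay between -1.04 and 0.25 over all settings, that of Nos2 between -0.37 and 0.43 and that of Nos3 between -1.06 (spike-in centring) and -0.27 (no suffix letter). The member median lay between -0.41 and 0.11, and was positive only without probe sets that carry a suffix letter.

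Among partners and regulators of the synthases, the count at least 1.5-fold higher was 2 after centring on the median, quantile normalization or the loess, with a 20th percentile floor or with the brightest probe set of a gene, and 0 with spike-in centring, a 60th percentile floor or only probe sets measured on both arrays. The count lower was 2 with spike-in centring, a 60th percentile floor or the brightest probe set, and 0 without suffix letters. Among effectors, the count higher was 1 with a 20th percentile floor or quantile normalization. The count lower was 3 with spike-in centring and 0 without suffix letters. Of all measured probe sets, 17.8% were lower with spike-in centring and 3.32% with the 60th percentile floor, against 5.38% at the main settings. The share higher was 1.01% and 2.08% there, against 3.10%. It was 6.46% with the 20th percentile floor, 4.05% with quantile normalization, 3.87% with the loess and 3.57% after centring on the median. Shares of genes were computed at the main settings only. Where no cause is named, the cause was not tested. Signal near the floor limits Gchfr, Slc7a1, Icam2 and AJ011115_g_at.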
